A study of Mus musculus with 55 samples.

Results

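The collagen genes were followed in the liver RNA of mice in which hepatocytes had lost Rnf43 and Znrf3, both negative regulators of WNT signalling. Members were taken by their symbols, as every name made of Col, a number, the letter a and a second number that stood in the count tables of both sequencing batches. This gave 44 collagen genes among the 34490 shared symbols. Of these, 11 encode chains of fibrillar collagens, 8 encode chains of the basement membrane collagens IV, XV and XVIII, and 25 encode other types.

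All mice were adult C57BL/6 animals with floxed Rnf43 and Znrf3 alleles. R&Z del mice had lost the exons for the RING domain of both genes in hepatocytes, through an albumin promoter-driven CreERT2 and tamoxifen or through an AAV8 virus carrying Cre under the hepatocyte-specific TBG promoter, while R&Z flox controls (named wild-type in the sample records) received the empty virus or the vehicle in place of the inducer. Other liver cells kept both genes in either genotype. Batch 1 held 2 R&Z flox and 1 R&Z del livers without damage at 3 months (3M) after induction and 2 and 2 at 7 months (7M). It also held livers taken during recovery from repeated carbon tetrachloride injections (chronic damage, CD), with 2 R&Z flox and 2 R&Z del at 4 days, 1 and 2 at 50 days, and 2 and 2 at 170 days, all male. Of the undamaged livers of batch 1, the R&Z del liver at 3M and 1 R&Z flox liver at 7M were female. The study's sample list gives tamoxifen for all grouped livers of batch 1, R&Z flox included, whereas its methods give such controls the vehicle. Batch 2 held undamaged livers at 1M (4 R&Z flox and 4 R&Z del), 3M (3 and 1) and 7M (3 and 3), and livers 7 and 21 days after partial hepatectomy (PHx; 3 and 3 at each time). They were male, but for 2 livers of each genotype at 1M and 1 R&Z del liver 21 days after PHx. That list gives the virus for the 1M, 3M and PHx mice of batch 2 and tamoxifen for the 7M mice, so induction and batch differ between experiments. One sentence of the study's methods gives control littermates the oil vehicle alone, whereas the sample records mark chronic damage for both genotypes, and the records were followed here. The records number the libraries of a group without saying what a number stands for, so the p-values below measure the spread between these libraries.

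Counts were scaled to library size and are given as CPM, a gene's count relative to the reads assigned to the shared symbols. These totals ran from 21712781 to 29893568 in the 18 grouped libraries of batch 1 and from 11573883 to 31715627 in the 30 of batch 2. Collagen genes together took 0.0452 to 0.174% of the counts in batch 1 and 0.0556 to 0.106% in batch 2. Whole-gene counts of the targeted genes were not reduced in R&Z del livers. Rnf43 lay between 5.12 and 19.2 CPM in the 9 R&Z flox and between 19.0 and 37.9 CPM in the 9 R&Z del libraries of batch 1, and Znrf3 lay between 4.63 and 9.99 CPM and between 11.9 and 26.7 CPM. In batch 2 Rnf43 overlapped (3.39 to 58.7 CPM in 16 R&Z flox and 26 to 68.4 CPM in 14 R&Z del libraries), and Znrf3 did not (9.05 to 35.3 CPM and 41.3 to 166 CPM). The reads can come from exons outside the deleted part, so these counts do not check the deletion. In all, 5 libraries whose title and other records disagree entered no comparison.

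Collagens are secreted proteins whose chains wind around each other in triple helices. Fibrillar collagens I, III and V polymerise into the fibres of the interstitium and of scars, collagen IV forms the sheet-like network of basement membranes, and FACIT collagens such as XII, XIV and XVI sit on fibre surfaces. In the liver, hepatic stellate cells and portal fibroblasts are the usual makers of fibrillar collagen, and they deposit it as myofibroblasts after chronic injury. Hepatocytes are known for making collagen XVIII, whose end fragment is endostatin.

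Upstream sequences are shown for 4 of the members that were higher in R&Z del livers 4 days after CD and whose response to damage was larger in R&Z del than in R&Z flox livers. They come from RefSeq on GRCm38.p6, run 5′ to 3′ on the gene's strand and end at the base before the annotated start. Capitals mark the CCAAT box, a short motif bound by the factor NF-Y.
Col1a2 (chr6:4505368-4505617, + strand): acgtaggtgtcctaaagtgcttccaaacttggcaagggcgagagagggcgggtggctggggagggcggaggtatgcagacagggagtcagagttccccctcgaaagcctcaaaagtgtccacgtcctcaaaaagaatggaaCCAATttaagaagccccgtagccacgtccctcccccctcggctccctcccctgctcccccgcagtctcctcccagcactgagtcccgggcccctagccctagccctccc
Col3a1 (chr1:45311288-45311537, + strand): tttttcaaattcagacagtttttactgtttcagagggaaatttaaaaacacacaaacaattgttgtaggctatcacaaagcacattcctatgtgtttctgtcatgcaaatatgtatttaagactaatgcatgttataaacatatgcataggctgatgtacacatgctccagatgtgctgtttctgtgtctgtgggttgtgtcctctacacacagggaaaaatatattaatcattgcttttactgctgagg
Col5a1 (chr2:27886175-27886380, + strand): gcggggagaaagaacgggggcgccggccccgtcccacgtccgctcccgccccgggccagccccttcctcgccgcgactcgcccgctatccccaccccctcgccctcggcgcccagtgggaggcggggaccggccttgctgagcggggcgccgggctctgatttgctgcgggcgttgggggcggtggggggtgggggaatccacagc
Col16a1 (chr4:130047590-130047816, + strand): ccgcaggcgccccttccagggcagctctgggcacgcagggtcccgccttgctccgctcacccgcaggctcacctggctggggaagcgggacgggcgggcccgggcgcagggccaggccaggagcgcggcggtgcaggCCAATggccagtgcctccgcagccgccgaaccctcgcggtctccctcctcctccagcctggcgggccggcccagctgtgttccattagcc
The Col1a2 and Col16a1 stretches each hold 1 CCAAT, and those of Col3a1 and Col5a1 hold none on either strand.

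Across the collagen family the same motif was about as frequent as in all promoters. Promoter windows, made of the 250 bases before a start, were matched by symbol for 35 of the 44 members and gave 38 windows. CCAAT, read on both strands (reverse complement ATTGG), lay in 13 of them, or 34.2%, against 33.8% of all 32851 windows of the same length. The TATA motif TATAAA lay in 5 (13.2%, against 12.4%). The GC box GGGCGG, the core of an SP1 site, lay in 22 (57.9%, against 32.7% of all windows). A match is a match of letters only, and Col1a1 was not among the matched genes.

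Several members lie side by side in the genome (mm10, the build of the counts). Col4a1 (chr8:11198423-11312889, minus strand) and Col4a2 (chr8:11312805-11449287, plus strand) are annotated head to head and overlap by 85 bases, and Col4a4 and Col4a3 on chromosome 1 overlap by 114 bases. Reads were counted without regard to strand, so reads in these overlaps cannot be told apart. Col4a6 and Col4a5 on chromosome X are 1274 bases apart, and Col3a1 (chr1:45311538-45349706) and Col5a2 are 24624 bases apart. The chains of collagen I are encoded far from each other, Col1a1 at chr11:94936224-94953042 and Col1a2 at chr6:4505618-4541543.

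Levels compared between genes were scaled to exon length and given as TPM, the length-corrected counterpart of CPM. In undamaged R&Z flox livers of batch 1 (n = 4), Col18a1 (chr10:77052178-77166530) stood apart at a median of 119 TPM (range 115 to 133), which was 80.7% of the summed medians of all 44 members. The next were Col14a1, a FACIT chain, at 4.70 TPM, Col3a1, the collagen III chain, at 3.79 TPM, Col5a3, a collagen V chain, at 3.70 TPM, and Col4a2 at 3.18 TPM. The ranges of Col14a1 (3.67 to 6.54), Col3a1 (2.19 to 5.07) and Col5a3 (1.84 to 3.97) overlapped, so that their order is not set. R&Z flox livers at 1M in batch 2 (n = 4) had the same leader, with Col18a1 at a median of 145 TPM and 81.0% of the sum.

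Most of the family was at or near the limit of detection. In batch 1, 15 of the 44 members never reached 1 CPM in a library, among them the cartilage chains Col9a1 and Col11a1 and the chain Col10a1 of growth plates, and Col2a1, the main cartilage collagen, had no count. In batch 2, 7 members never reached 1 CPM. The filter of each model, 1 CPM or more in a set number of libraries, left 20 members in the CD model, 23 in the undamaged model, 24 in the PHx model and 25 in the model of all batch 1 groups. In total 26 members were tested somewhere and 18 nowhere. A member that passes a filter through the group in which it is high has to differ, so the counts below describe the members tested and not the whole family.

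In the livers taken 4 days after the last CCl4 injection, the earliest of the recovery times, R&Z del mice had more fibrillar collagen RNA than R&Z flox mice. Col1a1, the chain that makes up most of collagen I, was at 5.08 and 9.02 CPM in the R&Z flox livers and at 42.6 and 143 CPM in the R&Z del livers. Its partner chain Col1a2 was at 13.4 and 20.6 CPM and at 66.5 and 190 CPM. Col3a1, the other main fibre of scars, was at 27.4 and 52.0 CPM and at 135 and 395 CPM. For all 3 genes both R&Z del libraries lay above both R&Z flox libraries, and the second R&Z del liver stood well above the first.

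In edgeR's quasi-likelihood model of the 11 CD libraries, Col1a1 was higher by 3.18 ± 0.75 on the log2 scale (SE, adjusted p = 0.022), Col1a2 by 2.38 ± 0.60 (adjusted p = 0.0274) and Col3a1 by 2.20 ± 0.62 (adjusted p = 0.0401). Genes count as called here when the p adjusted by Benjamini-Hochberg is under 0.1 and the log2 fold change lies beyond 1. By this rule 10 of the 20 members tested were higher in R&Z del livers and 1 was lower, while 10.3% of all 11358 genes tested were called higher, 4.95% lower and 15.2% in either direction. Among the 10, Col4a5 passed the filter only because the R&Z del livers at 4 days were counted, so its call is a description. The median log2 fold change was 1.47 over the members tested and 0.06 over all genes. In whole tissue, more cells of a type and more RNA in each cell cannot be told apart.

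**Figure D1:**
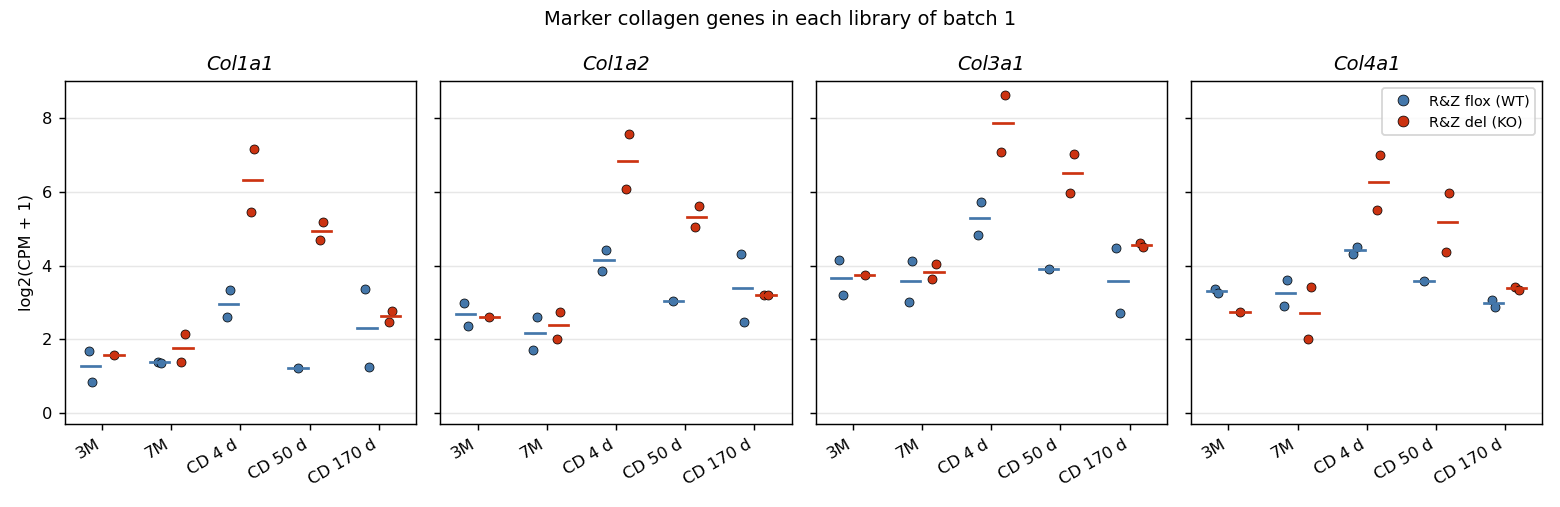
Levels of Col1a1, Col1a2, Col3a1 and Col4a1 in each library of batch 1, as log2(CPM + 1), in R&Z flox (blue) and R&Z del (red) livers without damage (3M, 7M) and 4, 50 and 170 days after CD. Points are libraries and bars are group means. The R&Z del livers at 4 days reach 143 CPM of Col1a1 and 395 CPM of Col3a1, and at 170 days the genotypes overlap for Col1a1 and Col1a2.

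Among the fibrillar chains, 4 of 7 tested rose, 1 fell and 2 did not pass the test. Col5a1, a chain of collagen V that seeds and limits the width of fibres, had the second smallest adjusted p of the family. It stood at 2.27 and 3.06 CPM in R&Z flox and at 14.7 and 25.7 CPM in R&Z del livers, a rise of 2.40 ± 0.37 (adjusted p = 0.00491). Its partner Col5a2 was at 1.96 and 2.58 CPM and at 8.13 and 30.5 CPM, with a wide error (2.54 ± 1.08, adjusted p = 0.128). The third collagen V chain, Col5a3, went the other way. At 25.2 and 14.2 CPM in R&Z flox and 14.4 and 10.5 CPM in R&Z del livers, it was called lower (-1.16 ± 0.43, adjusted p = 0.0937) although the ranges overlapped, and on library totals alone the difference was -0.66 and was not called.

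Of the basement membrane chains, 2 of 5 tested rose and none was called lower. Col4a1, which pairs with Col4a2 in nearly every basement membrane, was at 18.9 and 21.7 CPM in R&Z flox and at 44.7 and 127 CPM in R&Z del livers (1.54 ± 0.46, adjusted p = 0.0456). Col4a2 was at 24.7 and 25.5 CPM and at 29.9 and 125 CPM, and did not pass the test (1.08, adjusted p = 0.184). Col4a5, a chain known from kidney basement membranes, was at 1.44 and 2.37 CPM and at 5.45 and 9.63 CPM (1.46 ± 0.51, adjusted p = 0.0779). Without the R&Z del livers at 4 days Col4a5 would not have passed the filter, so it had to be high there. Col18a1, the abundant hepatocyte collagen, was at 491 and 418 CPM and at 414 and 385 CPM (-0.69 ± 0.22, adjusted p = 0.0603), short of the fold change required.

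The other types held 4 of 8 tested members that rose and none called lower. Col16a1, a FACIT chain found on fibres and near cells, had the smallest adjusted p of the family, at 1.82 and 1.74 CPM in R&Z flox and 12.2 and 17.5 CPM in R&Z del livers (2.54 ± 0.29, adjusted p = 0.00163). Col6a3, the long chain of the beaded collagen VI filaments, was at 4.19 and 4.87 CPM and at 16.6 and 63.6 CPM (2.60 ± 0.56, adjusted p = 0.0163). Its partner Col6a2 was at 5.70 and 8.14 CPM and at 18.3 and 51.0 CPM (1.79 ± 0.62, adjusted p = 0.0754), and Col6a1, the last of these partners, was at 6.45 and 9.85 CPM and at 14.8 and 42.5 CPM without passing the test (adjusted p = 0.181). The FACIT chain Col12a1 was at 0.481 and 1.08 CPM and at 2.95 and 3.17 CPM (1.47 ± 0.47, adjusted p = 0.0602). Col14a1, the most abundant FACIT chain of the liver, was at 18 and 29.1 CPM and at 21.9 and 62.9 CPM, ranges that overlapped (0.31).

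Some members lay under the filter of the CD model and had no test there, yet their reads were unevenly spread. Col4a6, whose gene lies next to Col4a5, had 0 and 5 counts in the R&Z flox livers at 4 days and 52 and 101 counts in the R&Z del livers. Col9a3, a FACIT chain best known from cartilage, had 3 and 2 counts and 106 and 154 counts. Both were picked here after their counts had been seen, and they are given as counts without a fold change.

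These calls rested on few livers. Without the second R&Z del liver at 4 days, 2 members were called, and the log2 fold changes were 2.17 for Col1a1, 1.54 for Col1a2, 1.34 for Col3a1 and 0.71 for Col4a1, none of them called. Without the first R&Z flox liver, 2 members were also called. Col5a1 and Col16a1 were called whichever of the 4 livers was left out.

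**Figure D2:**
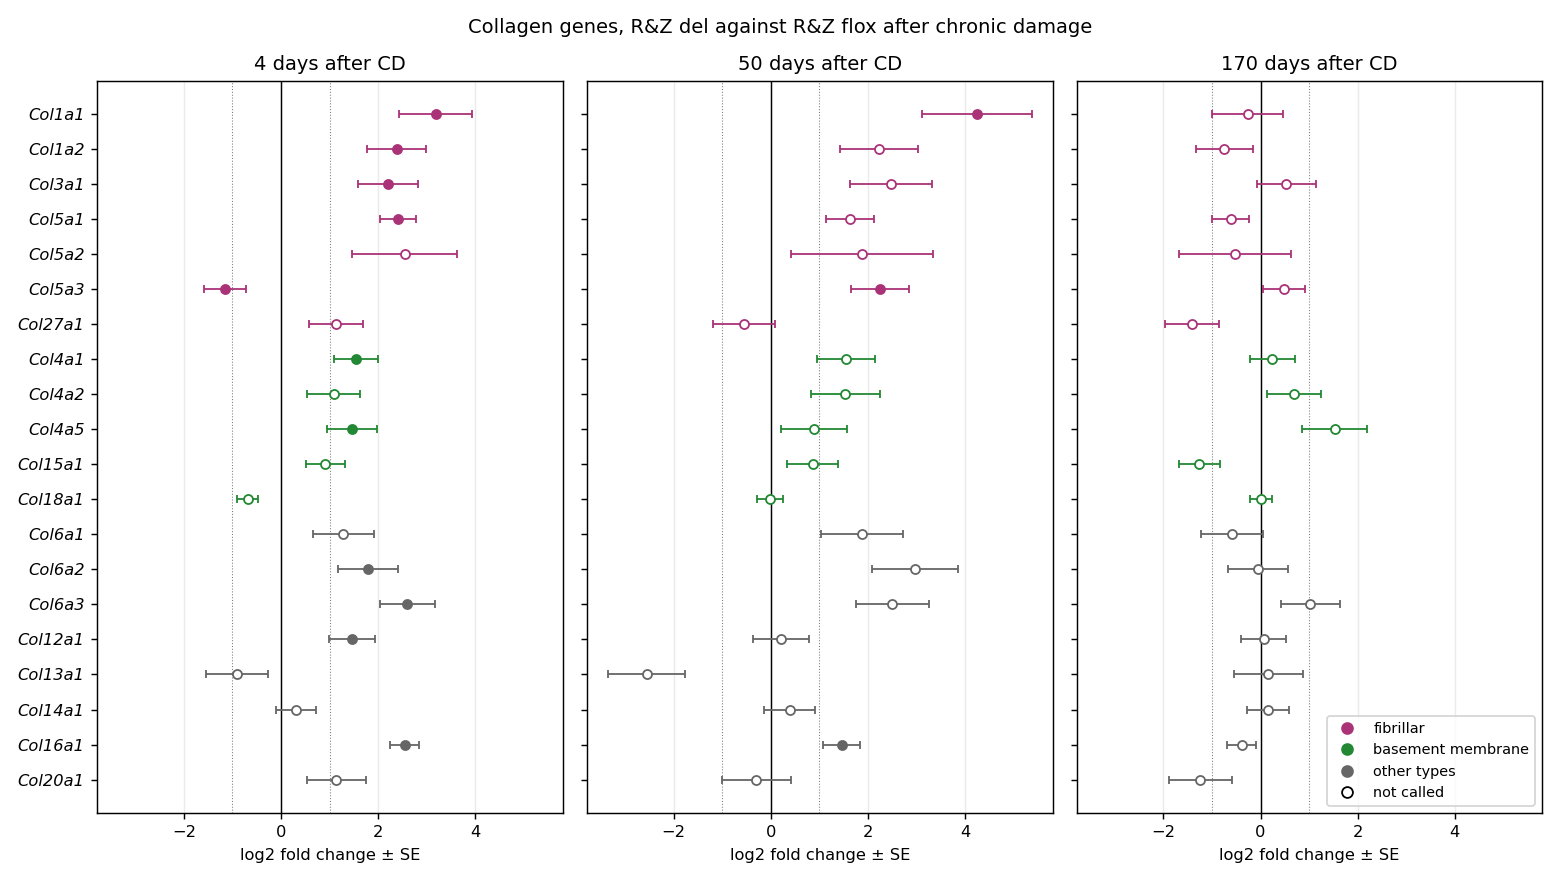
Log2 fold change (R&Z del against R&Z flox, with its SE) of the 20 members tested at 4, 50 and 170 days after CD, coloured by class, with filled points for members called. At 4 days 10 are called higher and 1 (Col5a3) lower, at 50 days 3 are called higher (Col1a1, Col5a3 and Col16a1), and at 170 days 0 are called.

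Scaled to length, the collagen pool of R&Z del livers at 4 days no longer consisted mainly of Col18a1. In R&Z flox livers at 4 days Col18a1 was at a median of 107 TPM and made up 66.8% of the summed medians, followed by Col3a1 at 12.2 TPM (7.66%), Col4a2 at 6.65 TPM and Col14a1 at 5.67 TPM. In R&Z del livers Col18a1 was at 97.8 TPM (26.4%), close to Col3a1 at 85.6 TPM (23.1%), with Col1a2 at 44.2 TPM (11.9%) and Col1a1 at 28.2 TPM (7.61%). The 2 R&Z del livers spanned 42.0 to 129 TPM for Col3a1 and 96.5 to 99.0 TPM for Col18a1, so the order of these leading genes differed between the livers.

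The level of Col1a1 relative to Col1a2 differed between the groups as well. The TPM ratio was 0.564 and 0.663 in R&Z del and 0.333 and 0.386 in R&Z flox livers at 4 days, and between 0.171 and 0.620 in the 7 undamaged livers of batch 1, so both R&Z del livers were above the R&Z flox livers of the same time, and 1 of them was above the undamaged range. The ratio of Col4a1 to Col4a2 was 1.28 and 0.867 in R&Z del livers at 4 days and 0.513 to 1.04 in the other libraries. No test was made on these ratios.

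**Figure D3:**
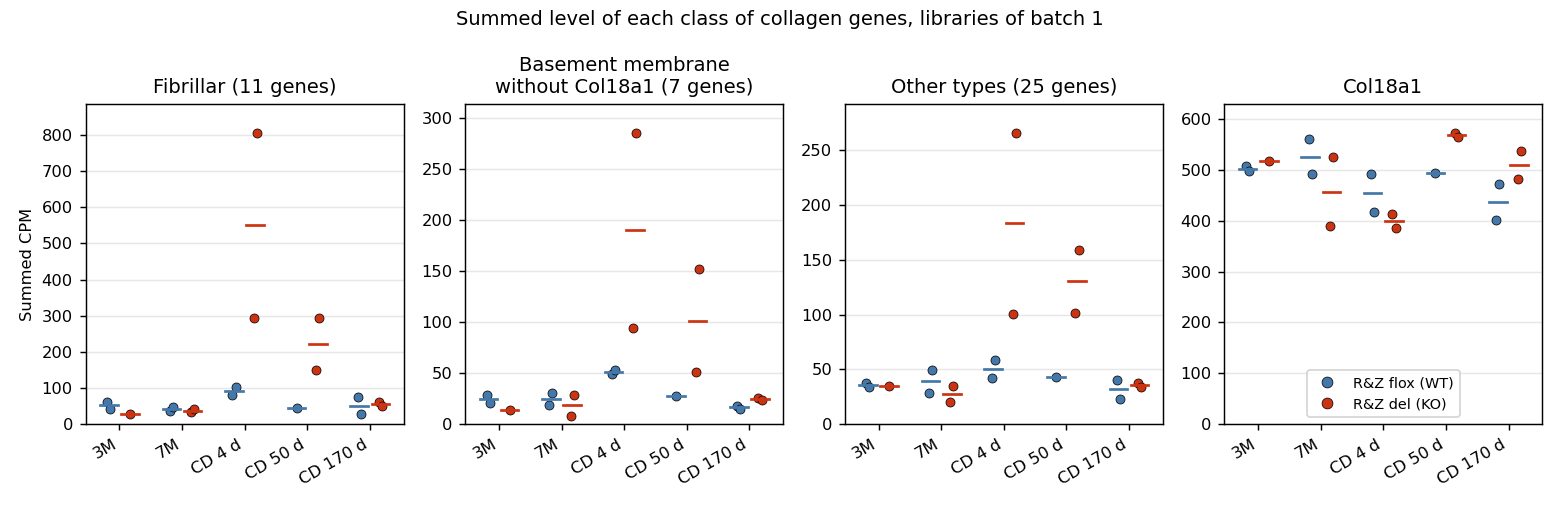
Summed CPM of fibrillar, basement membrane (without Col18a1) and other collagen genes, and the CPM of Col18a1, in each library of batch 1 (points are libraries and bars are group means). The fibrillar sum is 294 and 806 in R&Z del livers 4 days after CD against 81.5 and 104 in R&Z flox livers, whereas Col18a1 stays between 385 and 573 in all 18 libraries.

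The damage response was then followed within each genotype, against undamaged livers of batch 1, in a model of all 18 libraries with a term for sex. No undamaged livers were matched in time to 4 days after CD, so the 3M and 7M livers served, and the undamaged R&Z del group held 1 female liver at 3M beside 2 males at 7M. Only the R&Z flox group at 7M held both sexes, with 1 male and 1 female liver, so the sex term rests on that pair. It adjusts the female R&Z del liver at 3M, and the fold changes and errors within R&Z del livers depend on it. In R&Z flox livers at 4 days, 3 of 25 members tested rose and 1 fell, against 3.18% of all 12608 genes called higher, 1.91% lower and 5.09% in either direction. Col1a2 lay between 2.31 and 6.91 CPM in the 4 undamaged R&Z flox livers and rose by 2.14 ± 0.55 (adjusted p = 0.0583), Col3a1 lay between 7.05 and 16.6 CPM and rose by 1.98 ± 0.55 (adjusted p = 0.0758), and Col4a5 rose by 3.43 ± 0.71 (adjusted p = 0.0261). Col1a1 was 2.07 ± 0.71 higher without passing the test (adjusted p = 0.14). Col27a1, a fibrillar chain best known from cartilage, fell by 2.17 on the log2 scale (adjusted p = 0.0398), from 17.9, 12.6, 17.1 and 4.00 CPM to 5.56 and 2.12 CPM. Without the second R&Z flox liver at 4 days 0 members were called, and without the first at 7M, in a fit without the sex term, 0 were called too. The number was 2 without the first R&Z flox liver at 4 days and 2 without the third at 3M.

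In R&Z del livers at 4 days, 20 of 25 members tested rose and 1 fell, against 20.2% of all genes called higher, 11.2% lower and 31.4% in either direction. The median log2 fold change of the members was 3.33, and that of all genes was 0.08. The rises took in 6 of 7 fibrillar, 6 of 8 basement membrane and 8 of 10 other members. Col1a1, at 1.97, 1.62 and 3.39 CPM in the 3 undamaged R&Z del livers, rose by 4.59 ± 0.92 (adjusted p = 0.00433) and Col1a2 by 4.59 ± 0.71 (adjusted p = 0.00146). Col3a1 rose by 4.21 ± 0.72 (adjusted p = 0.00211) and Col4a1 by 3.46 ± 0.62 (adjusted p = 0.0026). Among the 25, Col4a4, Col4a6, Col6a5 and Col8a1 passed the filter only through damaged R&Z del livers and so had to differ, and without them 16 of 21 rose and 1 fell. The collagen IV chain Col4a4 had 6, 11 and 6 counts in undamaged R&Z del livers and 94 and 258 counts at 4 days. Without the second R&Z del liver at 4 days 11 members were called.

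Col18a1 was the member called lower in that comparison, by -1.09 ± 0.26 (adjusted p = 0.00931), from 389 to 525 CPM in the undamaged livers to 414 and 385 CPM. The difference was -0.37 on library totals alone, -0.85 without the sex term, -0.81 with male libraries alone, -0.81 without the female R&Z del liver and -0.94 without the second R&Z del liver at 4 days, none of which was called. Col5a3 rose by 1.22 ± 0.48 (adjusted p = 0.069) but was at -0.12 with male libraries alone. Its lowest level, 2.54 CPM, was that of the female R&Z del liver, and the cause of this turn was not tested. Col12a1 moved from 1.62 to 0.43 with male libraries alone and was then not called. With male libraries alone 18 members were called, all higher.

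**Figure D4:**
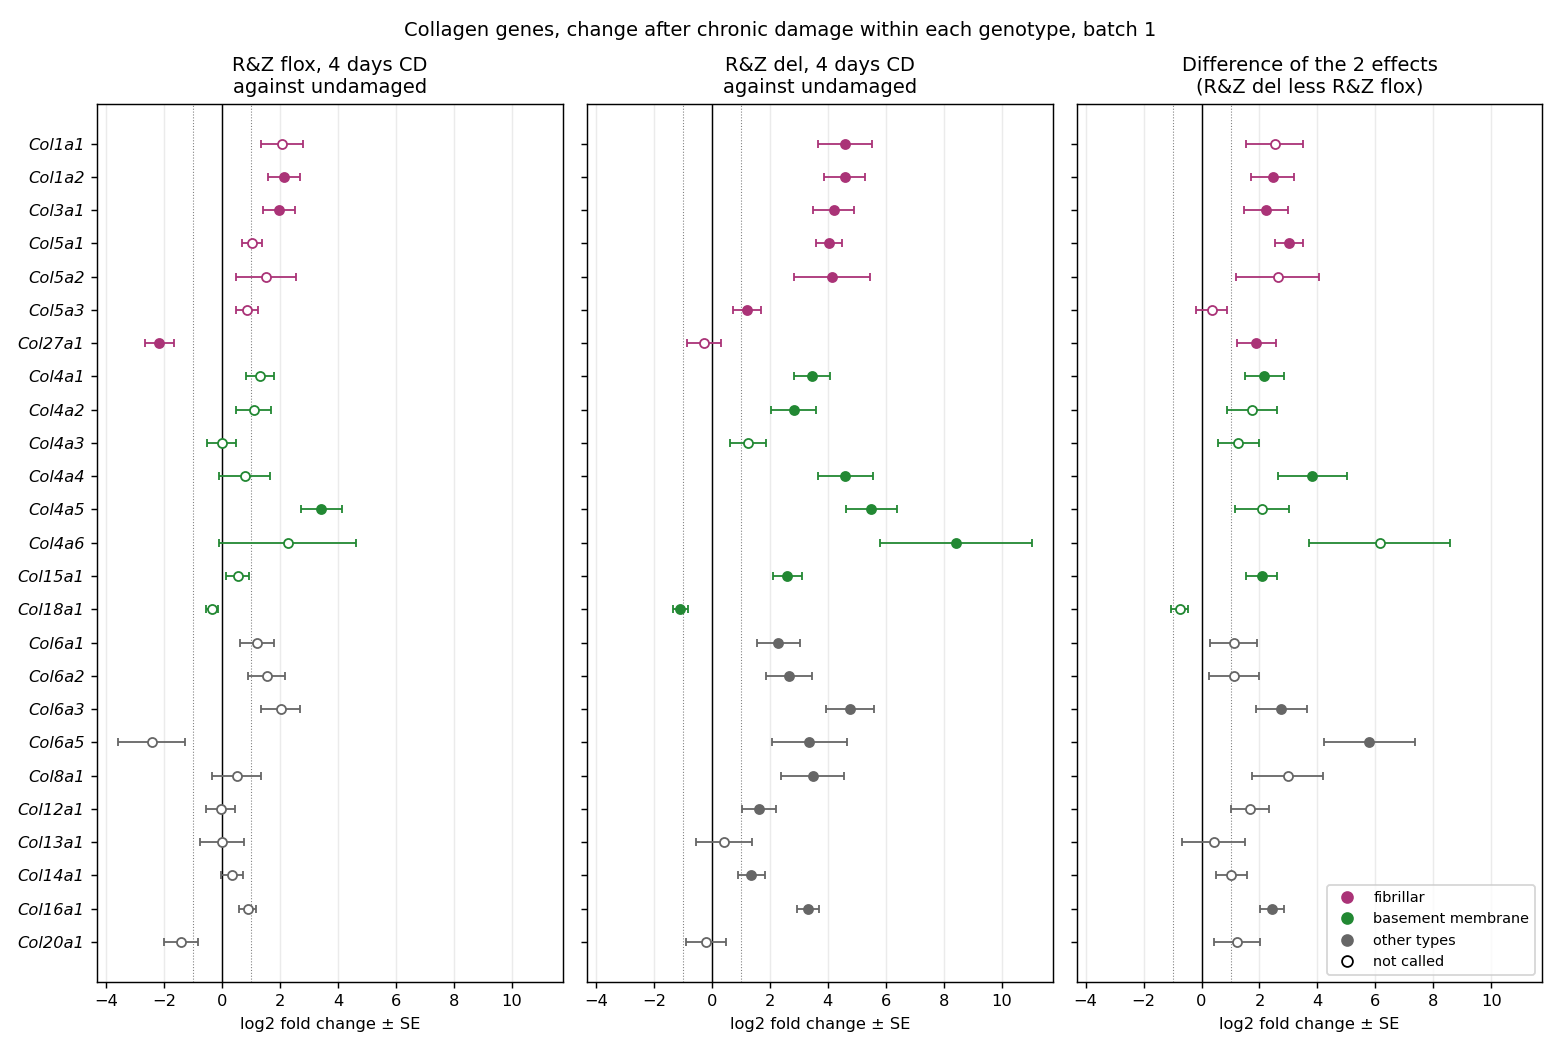
Log2 fold change (with its SE) of 25 members from undamaged livers to 4 days after CD in R&Z flox and in R&Z del livers, and the difference of these effects, in batch 1. Filled points are called. In R&Z flox livers 3 members are called higher, in R&Z del livers 20, and the difference (R&Z del less R&Z flox) is called above 0 for 10, among them Col27a1, which was called lower in R&Z flox livers.

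Whether the damage response itself differed between the genotypes was tested as an interaction in the same model. The change in R&Z del less that in R&Z flox livers was called above 0 for 10 of 25 members and below 0 for 0, against 9.83% of all genes called above 0 and 17.2% called in either direction. Of the 10, 8 were among the 21 members that passed the filter without the damaged R&Z del livers. For Col27a1 (1.89) the value came with a fall in R&Z flox livers and a change of -0.27 ± 0.60 in R&Z del livers, not with a rise. Col5a1 (3.01, adjusted p = 0.00685) and Col16a1 (2.44, adjusted p = 0.00776) had the smallest adjusted p, followed by Col15a1 (2.07, adjusted p = 0.0332), a proteoglycan-like basement membrane chain. Col1a2 (2.45, adjusted p = 0.0545), Col4a1 (2.17, adjusted p = 0.0576) and Col3a1 (2.23, adjusted p = 0.077) were called too, whereas Col1a1 was not (2.52 ± 0.99, adjusted p = 0.108). With male libraries alone 3 members were called. Without the second R&Z del liver at 4 days the number was also 3, as it was without the undamaged R&Z del liver at 3M, and it was 5 and 4 without the first and the second R&Z flox liver at 4 days and 5 without the second R&Z flox liver at 7M.

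At 50 days Col1a1, Col1a2 and Col3a1 in R&Z del livers lay between their levels at 4 days and the undamaged range, a course over time that was not tested. Col1a1 was at 24.7 and 35.5 CPM, Col1a2 at 31.9 and 48.0 CPM and Col3a1 at 61.5 and 130 CPM in the 2 R&Z del livers, and at 1.3, 7.16 and 14 CPM in the only R&Z flox liver. Col4a1 was at 19.7 and 61.6 CPM in R&Z del and 11.1 CPM in R&Z flox livers. The R&Z flox liver lay within the range of undamaged R&Z flox livers for Col1a1 and Col3a1 and just above it for Col1a2. With 1 R&Z flox liver, its spread was taken to be like that of the other groups. On that footing 3 of 20 members were called higher and 0 lower, against 2.64% of all genes called higher and 5.58% in either direction: Col1a1 (4.24 ± 1.13, adjusted p = 0.0847), Col5a3 (2.24 ± 0.59, adjusted p = 0.0839) and Col16a1 (1.46 ± 0.37, adjusted p = 0.0782). In all 10 members had an unadjusted p under 0.05, among them the collagen VI chains Col6a2 (2.96 ± 0.88) and Col6a3 (2.5 ± 0.75), with adjusted p = 0.1 and 0.102. The number called ran from 0 to 16 over the other ways of processing, and was 0 and 1 without the first and the second R&Z del liver.

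Col5a3 alone among the members was called in opposite directions over the recovery. It was called lower in R&Z del livers at 4 days and higher at 50 days, when it stood at 18.5 and 48.8 CPM in R&Z del and 5.75 CPM in the only R&Z flox liver. At 4 days the ranges overlapped, and library totals alone gave no call. The change between these times was not tested. Undamaged livers of batch 1 spanned 2.54 to 15.4 CPM for this gene.

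At 170 days no difference between the genotypes passed the test. Col1a1 was at 9.23 and 1.38 CPM in R&Z flox and at 4.55 and 5.81 CPM in R&Z del livers, Col3a1 at 21.2 and 5.55 CPM and at 23.3 and 21.8 CPM, and Col4a1 at 7.34 and 6.39 CPM and at 9.75 and 9.11 CPM. The first R&Z flox liver was well above the second for the fibrillar genes. By edgeR, 0 of 20 members were called, against 0.625% of all genes, and 3 had an unadjusted p under 0.05: Col4a5 (1.53 ± 0.67), Col15a1 (-1.26 ± 0.42) and Col27a1 (-1.41 ± 0.56). DESeq2 also called 0. Against undamaged livers of 7M, 0 of 25 members were called in either genotype, with 4 (R&Z flox) and 3 (R&Z del) at an unadjusted p under 0.05, and no gene of the whole table was called (0%). DESeq2 called 1 member in R&Z flox and 0 in R&Z del livers there.

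The genotype difference at 4 days less that at 170 days was called above 0 for 4 of 20 members and below 0 for 0, against 3.75% of all genes called above 0 and 6.92% called in either direction. These were Col16a1 (2.93 ± 0.41, adjusted p = 0.0162), Col5a1 (3.01 ± 0.53, adjusted p = 0.0262), Col15a1 (2.17 ± 0.58, adjusted p = 0.0793) and Col1a2 (3.12 ± 0.84, adjusted p = 0.0806). For Col15a1 the differences were 0.91 at 4 days and -1.26 at 170 days, neither of them called. Col1a1 had a larger change with a larger error (3.44 ± 1.03, adjusted p = 0.102). The count was 1 without the first R&Z flox liver at 4 days or the second R&Z del liver at 170 days, 11 without the second R&Z flox liver at 170 days, 4 without the first R&Z del liver at 4 days, and 2 without any of the other livers of these groups.

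In undamaged livers no difference between the genotypes passed the test. At 1M Col1a1 was at 9.55 and 8.04 CPM in male R&Z flox and at 3.26 and 0.145 CPM in male R&Z del livers. In females it was at 4.07 and 0.680 CPM in R&Z flox and at 24.5 and 20.3 CPM in R&Z del livers. The order of the genotypes was thus opposite in males and females. The sex term of the model shifts both genotypes alike and cannot show this, and a genotype difference that depends on sex was not tested. Col1a2 was at 2.10 to 5.59 CPM and at 3.00 to 12.6 CPM, Col3a1 at 7.34 to 14.2 CPM and 1.26 to 21.7 CPM, and Col4a1 at 8.33 to 38.1 CPM and 18.8 to 32.1 CPM, all overlapping. By edgeR, 0 of 23 members were called at 1M (0.436% of all genes were), with 1 at an unadjusted p under 0.05, Col5a3, which was at 0 to 1.37 CPM in R&Z flox and at 1.89 to 11.8 CPM in R&Z del livers (3.73 ± 1.17, adjusted p = 0.261). DESeq2 called 1.

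At 3M 0 of 23 members were called by edgeR (0.226% of all genes were) and 0 by DESeq2, with 2 at an unadjusted p under 0.05. Col1a1 was at 15.6 CPM in the R&Z del liver of batch 2 and at 0.0746, 0.432 and 0.0851 CPM in its R&Z flox livers, whereas in batch 1 the R&Z del liver (1.97 CPM) lay between the R&Z flox livers (2.21 and 0.808 CPM). The pooled difference, 4.05 ± 1.47 (adjusted p = 0.534), therefore rested on batch 2, where it is 1 liver. Col4a1 had a log2 fold change of -1.58 ± 0.72 without passing (adjusted p = 0.748).

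At 7M Col3a1 was at 9.90, 10.6 and 18.6 CPM in R&Z flox and at 6.28, 29.2 and 9.07 CPM in R&Z del livers of batch 2, and 0 of 23 members were called by edgeR (0.451% of all genes were) and 0 by DESeq2. The 2 members with an unadjusted p under 0.05 were Col6a3 (-5.63 ± 1.86), at 6.18, 0 and 3.32 CPM in R&Z flox and 0, 0.0454 and 0 CPM in R&Z del livers of batch 2, and Col14a1 (-0.87 ± 0.39). In batch 1 Col6a3 was at 0.598 and 2.49 CPM in R&Z flox and at 1.26 and 2.20 CPM in R&Z del livers, which overlapped, and its fitted fold change rests on values near 0. For Col1a1 the 2 batches differed in sign, with 0.55 in batch 1 alone against -0.62 ± 1.07 over both, and the same held for Col4a1 (-0.11 against 0.49 ± 0.49). Col18a1, the best measured member, differed by -0.030 ± 0.21 at 1M, 0.075 ± 0.27 at 3M and 0.15 ± 0.19 at 7M on the log2 scale.

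**Figure D5:**
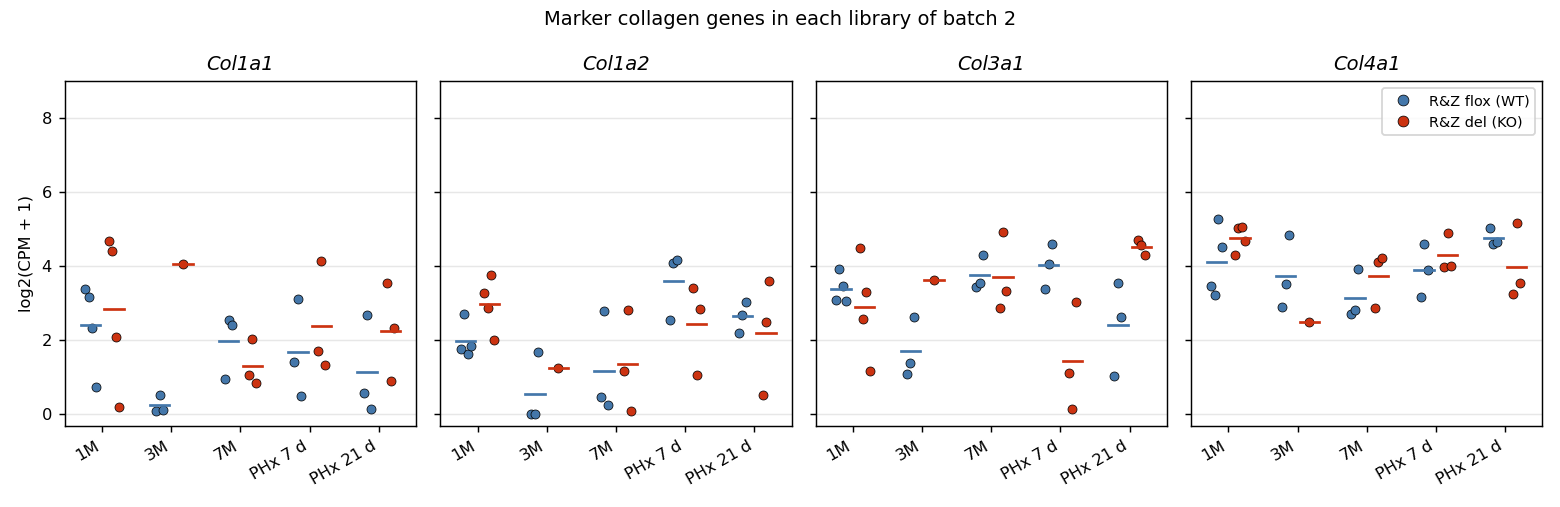
Levels of Col1a1, Col1a2, Col3a1 and Col4a1 in each library of batch 2, as log2(CPM + 1), in R&Z flox (blue) and R&Z del (red) livers without damage (1M, 3M, 7M) and 7 and 21 days after PHx. Points are libraries and bars are group means. Libraries of the same group are far apart, as for Col1a1 at 1M, which runs from 0.145 to 24.5 CPM in R&Z del livers, with the females above the males.

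The libraries of batch 2 were far noisier for this family. Over the same 23 members and the undamaged groups, the median SD of log2(CPM + 1) within groups was 1.00 in batch 2 (12 degrees of freedom) and 0.456 in batch 1 (3 degrees of freedom). Of the members' values, 20.3% were 0 in batch 2 and 0.483% in batch 1. Col18a1 had an SD of 0.255 and 0.193. Groups that held both sexes were not split by sex for these SDs. A difference of the size seen after CD in a gene like Col1a1 was therefore harder to detect in batch 2, and the PHx results below rest on these libraries.

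PHx removes tissue without repeated chemical injury, and the remaining lobes regrow. At 7 days Col3a1 was at 9.55, 15.7 and 23.4 CPM in R&Z flox and at 1.19, 0.116 and 7.17 CPM in R&Z del livers, with no overlap, and Col5a1 was at 0.372, 5.18 and 2.16 CPM and at 0, 0 and 0.276 CPM. Col1a1 (0.421 to 7.64 CPM and 1.54 to 16.5 CPM), Col1a2 (4.90 to 17 CPM and 1.10 to 9.62 CPM) and Col4a1 (8.06 to 23.4 CPM and 14.9 to 28.9 CPM) overlapped. By the adjusted rule 0 of 24 members were called, against 0.274% of all genes, and DESeq2 called 0. By the rule of the study's methods for PHx, with the p left unadjusted under 0.05 and the same limit on the fold change, 2 members were lower, Col3a1 (-2.67 ± 1.13) and Col5a1 (-4.85 ± 2.12), and 2.33% of all genes were called lower and 3.99% in either direction.

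At 21 days Col3a1 lay the other way, at 1.07, 10.8 and 5.18 CPM in R&Z flox and at 25.3, 22.7 and 18.6 CPM in R&Z del livers, again with no overlap, but with a log2 fold change of 1.77 ± 1.10 (adjusted p = 0.673). Col1a1 (0.115 to 5.38 CPM and 0.878 to 10.8 CPM), Col1a2 (3.63 to 7.19 CPM and 0.446 to 11.1 CPM) and Col4a1 (23.2 to 31.9 CPM and 8.53 to 35.3 CPM) overlapped. The adjusted rule called 0 of 24 members (0.329% of all genes), and DESeq2 called 1. The unadjusted rule called 3 lower, the basement membrane chain Col15a1 (-6.11 ± 2.16) and the FACIT chains Col16a1 (-5.67 ± 2.71) and Col14a1 (-1.45 ± 0.65), while 3.52% of all genes were called lower and 6.56% in either direction. Col15a1 was at 0, 3.95 and 13.4 CPM in R&Z flox and at 0, 0.0676 and 0.481 CPM in R&Z del livers. Where a group is at or near 0 the fitted fold change depends on the model and is not a measure of size.

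Genes that act on collagen were read from lists chosen for this purpose. Of 32 genes for chain modification, secretion, trimming and cross-linking, 20 were tested 4 days after CD, and 5 rose in R&Z del against R&Z flox livers while 0 fell (median log2 fold change 0.69, against 0.06 over all genes). Over all genes tested in this comparison, 10.3% were called higher and 4.95% lower, the shares against which this and the following counts at 4 days are to be read. These were P3h3, of the prolyl 3-hydroxylase family (2.08, adjusted p = 0.0111), Pcolce, an enhancer of C-propeptide removal (1.21, adjusted p = 0.0285), Sparc, a collagen-binding matrix protein (1.52, adjusted p = 0.0324), Adamts2, which removes N-propeptides (1.93, adjusted p = 0.0387), and Loxl1, a cross-linking oxidase (2.36, adjusted p = 0.0496). Sparc was at 88.2 and 130 CPM in R&Z flox and at 242 and 666 CPM in R&Z del livers. The collagen chaperone Serpinh1 (1.06, adjusted p = 0.158) and the prolyl 4-hydroxylase subunit P4ha1 (1.01, adjusted p = 0.133) did not pass.

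Of 12 collagen receptors and turnover genes, 7 were tested (median log2 fold change 1.23) and 3 rose, the collagen-binding kinases Ddr1 (3.97, adjusted p = 0.00865) and Ddr2 (1.23, adjusted p = 0.0812) and the collagen uptake receptor Mrc2 (2.34, adjusted p = 0.0427). Of 26 TGF-β and PDGF genes listed, 24 of them in the tables, which drive stellate cells and fibroblasts to make matrix, 18 were tested (median 0.99) and 8 rose. They included the ligands Tgfb3 (3.76, adjusted p = 0.00197) and Pdgfc (2.05, adjusted p = 0.0236), the latent TGF-β binding proteins Ltbp3 (2.86, adjusted p = 0.0107) and Ltbp2 (2.49, adjusted p = 0.0278) and the feedback inhibitor Smad7 (1.40, adjusted p = 0.0188), whereas Tgfb1 was at 3.57 and 5.53 CPM in R&Z flox and at 2.27 and 6.18 CPM in R&Z del livers. Of 37 other matrix genes, 28 were tested (median 1.49), 15 rose and 1, Lama1, fell. Lama5, a laminin of basement membranes (3.29, adjusted p = 0.0137), and elastin, Eln (3.73, adjusted p = 0.00875), were among the 15.

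The same lists were read in the other CD comparisons. At 50 days 3 of 20 maturation genes tested rose and 1 fell, and 1 of 7 receptor, 4 of 18 TGF-β and PDGF and 8 of 28 other matrix genes rose, against 2.64% of all genes called higher. At 170 days 0 were called in each list. Within R&Z del livers, from undamaged to 4 days, 12 of 26 maturation, 7 of 9 receptor, 13 of 22 TGF-β and PDGF and 22 of 33 other matrix genes rose, against 20.2% of all genes. Within R&Z flox livers 1, 0, 0 and 1 of the same numbers did, against 3.18% of all genes. The lists were not screened for genes that passed the filter only through damaged R&Z del livers. Such genes had to differ, so the numbers within R&Z del livers describe the genes tested only.

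Among markers of liver cells, those of cholangiocytes rose most in R&Z del against R&Z flox livers at 4 days (median log2 fold change 4.75). The medians were 2.06 for portal fibroblasts, 1.64 for myofibroblasts, 0.06 for stellate cells, -0.49 for endothelium, -0.47 for macrophages and -0.58 for hepatocytes. All 6 cholangiocyte markers tested of 7 were called higher in R&Z del livers at 4 days, among them Epcam (6.56) and Krt19 (4.56), and the summed markers of bile duct cells were at 3671 and 6541 CPM in R&Z del against 90.0 and 161 CPM in R&Z flox livers. The marker lists were not screened either for genes that passed the filter only through damaged R&Z del livers. Their medians and counts therefore describe the genes tested only. At 50 days the sum was 605 and 1189 CPM in R&Z del and 104 CPM in R&Z flox livers, and in undamaged livers of batch 1 it was 60.3 to 154 CPM. At 170 days it was 256 and 315 CPM in R&Z del and 58.3 and 264 CPM in R&Z flox livers, and Krt19 was at 87.7 and 1.15 CPM in the R&Z flox livers, the higher value in the one that also had the higher Col1a1. This match in 2 livers was not tested.

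Of 8 stellate cell markers tested, 1 rose (Hand2, 1.32, adjusted p = 0.0361), a share near that of all genes called higher at 4 days (10.3%), and their sum was 89.7 and 192 CPM in R&Z del and 111 and 139 CPM in R&Z flox livers. Of the 8, 4 had a log2 fold change above 0, among them Pdgfrb (1.18) and Des (0.95). Lrat (-1.14), Ngfr (-1.16) and Ecm1 (-1.13) were among those below it, none of them called. The median near 0 thus held changes in both directions. Of 5 myofibroblast markers 4 were tested and 1 rose (Loxl1), with sums of 25.9 and 85.2 CPM and 12.8 and 19.6 CPM, against 1.75 to 9.35 CPM in undamaged livers. Acta2, the smooth muscle actin that marks myofibroblasts, was at 2.20 and 5.53 CPM in R&Z flox and 6.88 and 26.3 CPM in R&Z del livers (1.56, adjusted p = 0.307). Of 6 portal fibroblast markers 4 were tested and 2 rose (Eln and Fbln2), with sums of 55.7 and 111 CPM and 15.9 and 21.0 CPM. Loxl1, Eln and Fbln2 stand in the matrix lists too.

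Endothelial markers gave 1 rise (Vwf, 2.28) and 1 fall (Lyve1, -2.01) among 8, and their sum was 131 and 286 CPM in R&Z del and 170 and 195 CPM in R&Z flox livers. Macrophage markers gave 1 rise (Ccr2) and 1 fall (Cd5l) among 6 tested of 7. The 7 hepatocyte markers gave 0 calls in either direction by edgeR, with summed levels between 77032 and 96509 CPM in the 4 livers. Of 5 blood genes 1, Alas2, fell, and the 1 pancreas marker tested of 4 was not called. Adipocyte, skeletal muscle and smooth muscle markers passed the filter in no case and summed to 5.02 CPM or less in these 4 livers. What part the cell makeup of the tissue had in the collagen levels was not tested.

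The scaling between libraries also moved with these results. The 2 R&Z del livers at 4 days had the largest TMM factors of the CD model, 1.27 and 1.42, while the other 9 libraries had 0.817 to 1.22. On library totals alone the median of all genes shifted from 0.06 to 0.57 on the log2 scale in the comparison at 4 days, and 16 members were called higher and 0 lower. Relative to that shift Col1a1 (3.73), Col3a1 (2.74) and Col4a1 (2.09) remained above the median of all genes.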

How the data were processed

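Polyadenylated RNA from mouse liver was made into Smart-Seq2 libraries and read from single ends. Per the labels, the authors trimmed reads with Trim Galore, aligned them to mm10 with STAR 2.5.0a and made raw counts per gene with featureCounts (1.5.0-p3 in batch 1, 1.5.0-p1 in batch 2), without strand and with RefSeq gene models. The deposited counts carry no normalisation. Of 53 libraries, 48 were grouped from their records, 5 with conflicting records were left out and 2 further samples were not analysed here. Total counts ran from 11721687 to 32168223 per library (median 22488266), which limits precision for genes with few reads.

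Both batches were joined on 34490 shared symbols. Counts were tested with edgeR 4.0.16 (R 4.3.3) by the quasi-likelihood F test after TMM normalisation, with Benjamini-Hochberg adjustment over all genes tested. Genes needed 1 CPM in 6 libraries (CD) or 3 (other models). Undamaged livers were fitted with sex and batch, PHx and all batch 1 livers with sex. Calls needed an adjusted p under 0.1 and a log2 fold change beyond 1. CPM used the shared-symbol total, TPM the featureCounts length. The test was tried on simulated data. Alternatives were DESeq2 1.42.0, its size factors, library totals alone, no filter, the compared groups alone, male libraries, no sex term, single batches, a replicate block and leaving out each library.

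Members, gene lists and tests were chosen with earlier results of these data known. Values are given per library for Col1a1, Col1a2, Col3a1 and Col4a1 and for the called members with the largest changes, other genes come from the chosen lists alone, and features named for their values are said to be so. Library totals alone were added after the normalisation factors had been seen.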

Additional observations from a re-analysis of the deposited data

Results flagged for a closer look

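In undamaged R&Z flox livers at 1M, 1 of 4 libraries stood far from the others for Col5a2, a collagen V chain, at 12.6 CPM against 0 to 0.429 CPM. A different library stood apart for Col8a1, a short-chain collagen of vessel walls, at 3.75 CPM against 0 to 0.0857 CPM. These were 2 of 46 pairs of gene and group screened for a sample far from the rest, and chance gives about 1 in 20.

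The genotype difference itself differed between 4 and 170 days after CD for Col1a2 (3.12 on the log2 scale), Col5a1 (3.01), Col15a1 (2.17) and Col16a1 (2.93), by a test of that difference. The change from undamaged livers to 4 days after CD in R&Z del less that in R&Z flox livers was above 0 for Col1a2 (2.45), Col3a1 (2.23), Col4a1 (2.17), Col4a4 (3.83), Col5a1 (3.01), Col6a3 (2.74), Col6a5 (5.80), Col15a1 (2.07), Col16a1 (2.44) and Col27a1 (1.89), by the interaction test. For Col27a1 this came with a fall in R&Z flox livers and not with a rise in R&Z del livers. Col4a4 and Col6a5 passed the filter only through damaged R&Z del livers, so that their values are descriptions. Col6a5, a collagen VI chain, had few reads, with 3 and 2 counts in R&Z flox and 50 and 52 counts in R&Z del livers at 4 days and 1 to 19 counts in undamaged livers, so its fitted value depends on the model.

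Among the 5 libraries with conflicting records, which entered no comparison, 3 had Col1a1 above the highest undamaged R&Z flox library of batch 1 (2.21 CPM), at 4.94, 5.77 and 15.5 CPM. The other 2 were at 2.08 and 2.15 CPM.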

How the results depend on the processing

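Numbers of collagen genes called depended on the filter and on single livers. At 4 days after CD, 11 members were called, 22 with no filter on low counts and 18 with the compared groups alone. At 50 days 3 were called, 6 with DESeq2 size factors, 0 on library totals alone, 16 with no filter, 12 by DESeq2 and 0 with the libraries of conflicting records added. By their characteristics, a library with 6.97 CPM of Znrf3 was added there as R&Z del and one with 18.6 CPM as R&Z flox. Each value lies in the batch 1 range of the other genotype (4.63 to 9.99 CPM in R&Z flox, 11.9 to 26.7 CPM in R&Z del). The last count is therefore not a check of the result. With no filter the number rose from 0 to 2 at 170 days, to 1 at 1M, to 5 in R&Z flox and to 3 in R&Z del livers at 170 days against undamaged livers, from 4 to 11 in R&Z flox livers at 4 days against undamaged livers, to 17 for the difference between 4 and 170 days and to 17 for the difference in damage response. DESeq2 gave 1 at 1M, 1 at 21 days after PHx, 1 in R&Z flox livers at 170 days, 7 in R&Z flox livers at 4 days and 7 between 4 and 170 days. The unadjusted rule gave 2 and 3 at 7 and 21 days after PHx. The difference in damage response was called for 10 members, 17 on library totals alone and 3 with male libraries. At 3M and 7M 0 members were called under every alternative run.

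Leaving out a library gave 2 to 9 members at 4 days, 0 to 1 at 50 days, 0 to 5 in R&Z flox and 11 to 21 in R&Z del livers at 4 days against undamaged livers, 0 to 1 in R&Z flox livers at 170 days, 1 to 11 between 4 and 170 days and 3 to 12 for the difference in damage response. In R&Z flox livers at 4 days, 0 remained called without the second CD liver or without the first 7M liver.

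Whether replicate numbers pair the libraries is not recorded. Deviations of same-numbered libraries correlated at 0.329 (4 days), -0.357 (170 days), -0.0765 to -0.0434 (1M), -0.0659 to -0.00866 (7 days after PHx) and -0.0287 to -0.00257 (21 days). At 4 and 170 days each group holds 2 libraries, whose deviations mirror each other. Those values cannot tell paired from unpaired libraries. With the replicate number as a block, 10 members were called at 4 days (all higher), 1 at 50 days and 2 between 4 and 170 days, and no other count changed. Col1a1 at 1M was at -0.015 with the block.

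Signs turned for results that were not called. In batch 1 alone at 7M, Col1a1 was at 0.55 and Col4a1 at -0.11. Without a sex term Col4a1 in R&Z flox livers at 170 days was at -0.099. Leaving out a library at 170 days moved Col1a1 from -1.04 to 1.70, Col1a2 from -1.42 to 0.64 and Col3a1 from -0.13 to 1.81. It moved Col3a1 at 1M from -1.15 to 0.12, Col1a2 at 7M from -1.10 to 1.89 and Col3a1 at 7M from -0.29 to 0.58. After PHx it moved Col1a1 from -0.86 to 2.63 and Col4a1 from -0.13 to 0.75 at 7 days, and Col1a1 from -0.86 to 3.92 and Col1a2 from -1.13 to 0.40 at 21 days. At 170 days against undamaged livers it moved Col1a1 from -0.14 to 2.59, Col3a1 from -0.25 to 1.67 and Col4a1 from -0.32 to 0.26 in R&Z flox and Col4a1 from -0.067 to 1.52 in R&Z del livers. Of called results, Col5a3 in R&Z del livers at 4 days against undamaged livers turned, to -0.12 with male libraries alone and from -0.12 to 1.53 over libraries left out. The cause was not tested. Depth limits members with few reads, which the filter removes.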

Other observations

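The 5 libraries with conflicting records were read as single values. Their fibrillar collagen genes summed to 48.8, 53.2, 95.6, 52.6 and 30.5 CPM, where undamaged livers of batch 1 gave 28.2 to 62.8 CPM and R&Z del livers 4 days after CD gave 294 and 806 CPM. Col3a1 was at 24.8, 17.9, 46.4, 21.4 and 12.7 CPM in the same order.

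Some further members had reads mainly in R&Z del livers 4 days after CD, as seen on reading the counts. Col9a2, a partner of Col9a3 in collagen IX, had 20 and 76 counts there, 0 and 0 in R&Z flox livers of that time and 0 to 2 in undamaged livers of batch 1. Col8a1 had 45 and 170 counts, 16 and 10 counts, and 1 to 10 counts. Col4a4 was at 1.68 and 6.07 CPM in R&Z del livers at 50 days and at 0.291 CPM in the R&Z flox liver.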
